A study of Homo sapiens with 24 samples.

Results

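A549 and H1299 are human lung cancer cell lines derived from tumours with different genetic lesions. The comparison took the 3 A549 libraries labelled control and the 3 H1299 libraries labelled control, 6 of the 24 RNA-seq libraries of a study that knocked down CBX7, a Polycomb protein, in 4 lines. Per the labels, the cells carried a lentivirus with a control hairpin, and the 6 libraries of the same lines labelled knockdown carried a hairpin against CBX7. The labels' treatment field names an agent against CBX7 for the control libraries too, and none of these libraries is labelled untreated. Of 19475 genes in the table, 15312 had enough counts to be tested. With 1 line on each side, the parts of the single lesions in a difference cannot be told apart.

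A549 came from a lung adenocarcinoma and is known for inactivated STK11 and KEAP1 and for a lost CDKN2A locus. H1299 came from a non-small cell lung carcinoma and is known for an activated NRAS. KEAP1 marks the transcription factor NRF2 (gene NFE2L2) for destruction, so cells without working KEAP1 keep NRF2 and its antioxidant and detoxifying targets on. STK11 is a kinase upstream of the salt-inducible kinases, which hold back the CREB coactivators CRTC1 and CRTC2. CDKN2A encodes p16 and p14ARF, an inhibitor of the cyclin D kinases and an inhibitor of MDM2.

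The deposited estimated counts came to between 102.3 and 117.0 M per A549 library and between 116.6 and 132.5 M per H1299 library. Levels below are CPM, the share of a library's counts times 1 M, scaled by edgeR's TMM factors, errors are SD over n = 3 libraries, and a log2 fold change is A549 over H1299. A gene is called when edgeR's quasi-likelihood test gave an adjusted p (Benjamini-Hochberg over all genes tested) under 0.05. The labels do not say that the 3 libraries of a group came from separate cultures, so p-values measure the spread between these libraries only. CBX7 itself went against the labels. It was at 56.7, 54.0 and 54.5 CPM in A549 and 404, 387 and 381 CPM in H1299 libraries labelled knockdown, but at 6.49, 5.99 and 5.59 CPM in A549 and 29.9, 29.4 and 31.0 CPM in H1299 libraries labelled control. A fit of each line's 6 libraries, which scales them together, gave means of 50.9 CPM under the knockdown label and 6.0 CPM under the control label in A549 (log2 fold change 3.08), and of 396 CPM and 32.2 CPM in H1299 (3.62). For that reason the wording "labelled control" is kept, and counts from the same comparison in the 6 libraries labelled knockdown are given beside those of each gene list.

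Markers of other cells were low in both lines under the control label. The 14 erythroid markers together reached 7.91 to 9.97 CPM in A549 libraries, against 47.2 to 48.1 CPM in H1299 libraries, of which EPOR, the erythropoietin receptor, made up 43.6 ± 0.544 CPM in H1299. The 14 leukocyte markers reached 38.4 to 42.4 CPM in A549 libraries, against 75.1 to 77.7 CPM in H1299 libraries, mostly CD68, and MPO, CD3E and MS4A1 were at 0 in all 6 libraries. The 13 fibroblast and endothelial markers reached 29.6 to 30.0 CPM in A549 libraries, against 4.06 to 4.66 CPM in H1299 libraries. The H1299 libraries labelled control also held shorter transcripts: their count-weighted transcript length was 2982 to 3026 bases, against 3672 to 3685 bases in A549, and 3762 to 3789 bases in the H1299 libraries labelled knockdown. The log2 fold change correlated with transcript length at a Spearman rho of 0.227 across 15312 genes in the libraries labelled control and of 0.0155 across 15363 genes in those labelled knockdown.

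Most genes differed between the lines. Of 15312 genes, 6518 (42.6%) were called higher in A549 and 6359 (41.5%) lower, 84.1% in all, and the median log2 fold change was 0.03. At least 2-fold, 3745 genes (24.5%) were higher and 3370 (22%) lower in A549, 46.5% together. The lines' libraries did not overlap for 13422 genes (87.7%), and for 85.8% of genes under the knockdown label. Under the knockdown label 6448 of 15363 genes (42%) were called higher in A549 and 6178 (40.2%) lower. Of the 12877 genes called in the libraries labelled control, 9890 were called the same way in those labelled knockdown and 1281 the opposite way. The line difference itself changed with the label at 8870 of 15847 genes (56%) by edgeR's interaction test. The most abundant RNAs by length-scaled level (FPKM) in A549 were FTL, the ferritin light chain, at 6367 ± 55.6 FPKM against 795 ± 21.1 in H1299, ALDH1A1, FTH1, AKR1B10 and KRT8. In H1299 they were EEF1A1, a translation elongation factor, at 1932 ± 31.5 FPKM in A549 against 4625 ± 64.1 in H1299, GAPDH, RPL7, TMSB10 and VIM.

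**Figure D1:**
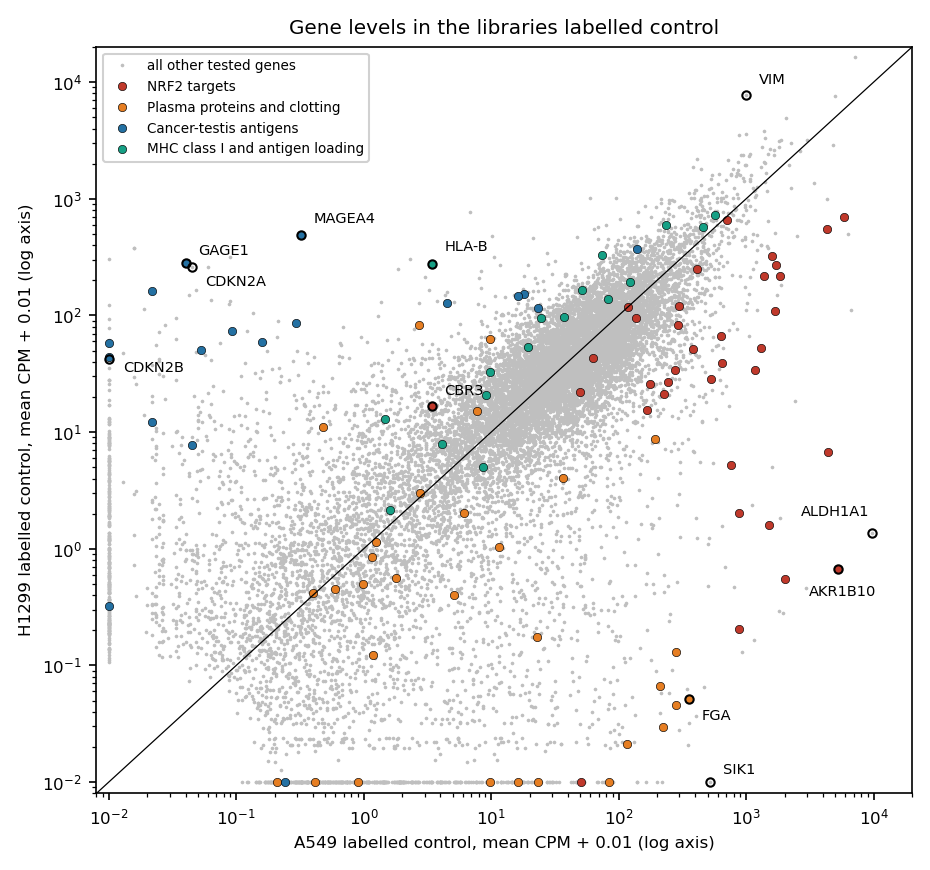
Mean level of each of the 15312 tested genes in A549 (horizontal, CPM + 0.01, log axis) and in H1299 (vertical, CPM + 0.01, log axis) in the libraries labelled control, n = 3 each, with 4 gene lists in colour and 11 genes ringed and named. Points below the line are higher in A549: AKR1B10 averaged 5272 CPM in A549 and 0.666 CPM in H1299, whereas MAGEA4 above the line averaged 0.31 CPM in A549 and 486 CPM in H1299.

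Genes of the DNA damage response, cell cycle arrest and apoptosis were higher in A549 in most cases. All 37 genes of this list were tested. Of them 27 were higher in A549, 14 of these at least 2-fold, 4 were lower and 6 were not called, with a median log2 fold change of 0.88, beside 42.6% higher, 41.5% lower and a median of 0.03 over all genes. Counted under the knockdown label, 31 were higher and 6 lower, with a median of 1.28.

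Some of these genes were almost silent in H1299. SPATA18, a mitochondrial quality control protein, had 11.2, 11.8 and 13.1 CPM in A549 and no count in H1299, at least 508-fold higher in A549 against a floor of 3 counts per library. The unit of the estimated counts is not known: of 7227 counts of 2 to 17 in the 6 libraries, 73.3% lay at a multiple of 4 or 1 above it, where an even spread would give 50%. If 4 counts stand for 1 fragment, this bound would be 127-fold, and every such bound given here would be 4 times lower. PHLDA3, which competes with AKT for membrane lipid, was at 44.0, 45 and 42.2 CPM in A549 and at 0.263, 0.316 and 0.341 CPM in H1299 (log2 fold change 7.16, SE 0.0973). GDF15, a stress cytokine, was at 65.8, 64.6 and 61.7 CPM in A549 and at 2.23, 1.94 and 2.20 CPM in H1299 (4.91, SE 0.0719). These 3 genes were many fold apart. EDA2R, a death receptor of the TNF receptor family, was uneven within A549, at 40.3, 39.2 and 10.7 CPM, against 0, 0 and 0.0833 CPM in H1299. CDKN1A, which encodes the p21 inhibitor of cyclin-dependent kinases, was nearer between the lines, at 128, 119 and 116 CPM in A549 and 45.9, 45.1 and 44.9 CPM in H1299 (1.42, SE 0.043).

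Other genes of the list were expressed in both lines. MDM2, a ubiquitin ligase, was at 139, 139 and 151 CPM in A549 and at 100, 106 and 102 CPM in H1299 (log2 fold change 0.48, SE 0.0428), and the apoptosis effector BAX was at 62.4, 58.7 and 59.8 CPM in A549 and at 37.6, 40.6 and 37.7 CPM in H1299. TNFRSF10B, a death receptor for TRAIL, averaged 189 ± 0.967 CPM in A549 and 45.6 ± 1.16 CPM in H1299. The 4 genes lower in A549 were CCNG1, GADD45A, TP53INP1 and POLH. CCNG1, a cyclin that recruits a phosphatase to MDM2, was at 66.7, 73.9 and 75.0 CPM in A549 and at 281, 282 and 279 CPM in H1299 (-1.96, SE 0.0458). GADD45A, a growth arrest protein, averaged 17.8 ± 0.598 CPM in A549 and 49.7 ± 1.25 CPM in H1299. The 6 that were not called were RRM2B, TRIAP1, SESN1, FAS, TNFRSF10C and BBC3. RRM2B, a ribonucleotide reductase subunit, was spread within groups, at 32.8, 24.3 and 22.7 CPM in A549 and at 7.50, 7.17 and 49.7 CPM in H1299. Without the third H1299 library the RRM2B log2 fold change was 1.84 (adjusted p = 0.000228, edgeR).

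The genes that NRF2 switches on were higher in A549 almost throughout. NRF2 binds the antioxidant response element as a dimer with a small MAF protein. The element's core was searched as TGACNNNGC on both strands of the RefSeq promoter windows (GRCh38.p14, 250 bases before to 50 after a gene start). Of 35116 windows 13.3% held it, and of 30 windows found for 24 of the 35 listed NRF2 targets 10 windows (33.3%, 9 genes) did. Below are 61 bases around the match in 5 of those genes, chosen because their RNA was higher in A549. They are written on the gene's strand, 5′ to 3′, with the match in capitals, which is the reverse complement of the core in GCLM, GPX2 and TXNRD1.
GCLM, chr1:93909430-93909490, minus strand: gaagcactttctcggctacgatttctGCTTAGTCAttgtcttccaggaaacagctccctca
GPX2, chr14:64942833-64942893, minus strand: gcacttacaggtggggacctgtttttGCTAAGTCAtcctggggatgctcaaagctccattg
ME1, chr6:83431154-83431214, minus strand: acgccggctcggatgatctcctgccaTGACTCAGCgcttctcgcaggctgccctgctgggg
TXNRD1, chr12:104286904-104286964, plus strand: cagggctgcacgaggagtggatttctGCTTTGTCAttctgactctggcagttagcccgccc
EPHX1, chr1:225825250-225825310, plus strand: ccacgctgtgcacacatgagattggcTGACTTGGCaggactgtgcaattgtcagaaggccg
The match begins 34 bases before the gene start in GCLM, 122 in GPX2, 137 in ME1, 102 in TXNRD1 and 78 in EPHX1. TXNRD1 has a further window with a match at another of its starts. The letters in ME1 also hold TGACTCA, the core of AP-1 sites. A match describes the letters and does not show that a factor binds there.

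Of the 35 NRF2 targets 33 were higher in A549, 29 at least 2-fold, and their median log2 fold change was 3.09, beside 42.6% higher and 0.03 over all genes. Summed over the list, the level was 41707 to 42474 CPM in A549 libraries, against 4142 to 4257 CPM in H1299 libraries. Among libraries labelled knockdown, 34 were higher and the median was 3.07. The 5 genes shown above covered a wide range. GPX2, a glutathione peroxidase, was at 904, 869 and 849 CPM in A549 and at 0.190, 0.113 and 0.283 CPM in H1299 (log2 fold change 12.12, SE 0.254). EPHX1, microsomal epoxide hydrolase, was at 535, 531 and 526 CPM in A549 and at 29.2, 28.7 and 28.2 CPM in H1299 (4.21, SE 0.0259). ME1, the malic enzyme that makes NADPH in the cytosol, was at 161, 170 and 171 CPM in A549 and at 16, 15.9 and 14.6 CPM in H1299 (3.43, SE 0.0477). All 3 separated the lines by far more than the libraries of a line differed. TXNRD1, thioredoxin reductase, was at 1385, 1389 and 1402 CPM in A549 and at 218, 218 and 220 CPM in H1299 (2.67, SE 0.0186). GCLM, the modifier subunit of the enzyme that starts glutathione synthesis, was at 235, 247 and 248 CPM in A549 and at 10.7, 34.7 and 34.6 CPM in H1299 (3.19, SE 0.545). The GCLM spread in H1299 lay in 1 library.

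The aldo-keto reductases, which reduce reactive aldehydes and ketones, were abundant in A549 and low in H1299. AKR1B10 was at 5291, 5293 and 5232 CPM in A549 and at 0.615, 0.592 and 0.791 CPM in H1299 (log2 fold change 12.95, SE 0.122, adjusted p = 6.44e-09, edgeR). AKR1C2 averaged 4368 ± 46.3 CPM in A549 and 6.69 ± 0.154 CPM in H1299, AKR1C1 1520 ± 22.3 CPM in A549 and 1.58 ± 0.522 CPM in H1299, and AKR1C3 2015 ± 27.6 CPM in A549 and 0.545 ± 0.195 CPM in H1299. The AKR1C genes are close in sequence, so reads may be split among them. NQO1, a quinone reductase, was at 1859, 1863 and 1844 CPM in A549 and at 210, 217 and 225 CPM in H1299 (3.09, SE 0.0294). SLC7A11, the cystine importer, averaged 767 ± 9.80 CPM in A549 and 5.19 ± 0.533 CPM in H1299, and the efflux pump ABCC2 averaged 873 ± 13.9 CPM in A549 and 2.00 ± 0.264 CPM in H1299. In the pentose phosphate path, PGD and TKT were higher in A549 by 2.66 and 2.30. CYP4F11, a fatty acid hydroxylase, was at 48.9, 50.3 and 51.4 CPM in A549 and at 0 in H1299, at least 2121-fold higher in A549. FTL averaged 5890 ± 76.9 CPM in A549 and 698 ± 19.7 CPM in H1299.

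The exceptions were CBR3 and BLVRB. CBR3, a carbonyl reductase, was the 1 member lower in A549, at 3.55, 3.45 and 3.26 CPM against 16.9, 16 and 17.6 CPM in H1299 (-2.30, SE 0.078). Its neighbour in function, CBR1, was higher in A549 by a log2 fold change of 0.51. BLVRB, biliverdin reductase B, was not called, at 122, 117 and 117 CPM in A549 and at 112, 117 and 125 CPM in H1299.

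Other enzymes that handle foreign compounds went the same way. Of 26 listed, 22 were higher in A549 and 4 lower, beside 42.6% and 41.5% of all genes. The median log2 fold change of the 26 was 4.52, or 4.13 with the genes at 0 in H1299 set at their bound. That bounded median would be 3.09 if 4 counts stand for 1 fragment. In the libraries labelled knockdown 22 were again higher and 4 lower. ALDH1A1, which oxidises retinal, was at 9690, 9685 and 9619 CPM in A549 and at 1.62, 1.35 and 1.08 CPM in H1299. ALDH3A1, which oxidises aromatic aldehydes, averaged 1939 ± 49.9 CPM in A549 and 0.273 ± 0.0294 CPM in H1299. CYP24A1, which inactivates vitamin D, was at 1733, 2092 and 1686 CPM in A549 and at 1.87, 2.08 and 1.49 CPM in H1299. The 4 lower members were CYP1A1, GSTM3, GSTO1 and GSTA4. CYP1A1, a target of the aryl hydrocarbon receptor, was at 0, 0.0703 and 0.0483 CPM in A549 and at 2.95, 2.29 and 2.4 CPM in H1299. The UGT1A genes share most of their exons and differed in level within A549. UGT1A6 was at 4.51 ± 0.225 CPM in A549 and 0.0135 ± 0.0234 CPM in H1299. UGT1A7 and UGT1A9, which are not on the list, averaged 29.1 ± 0.543 and 27.2 ± 0.707 CPM in A549 and were at 0 in H1299.

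**Figure D2:**
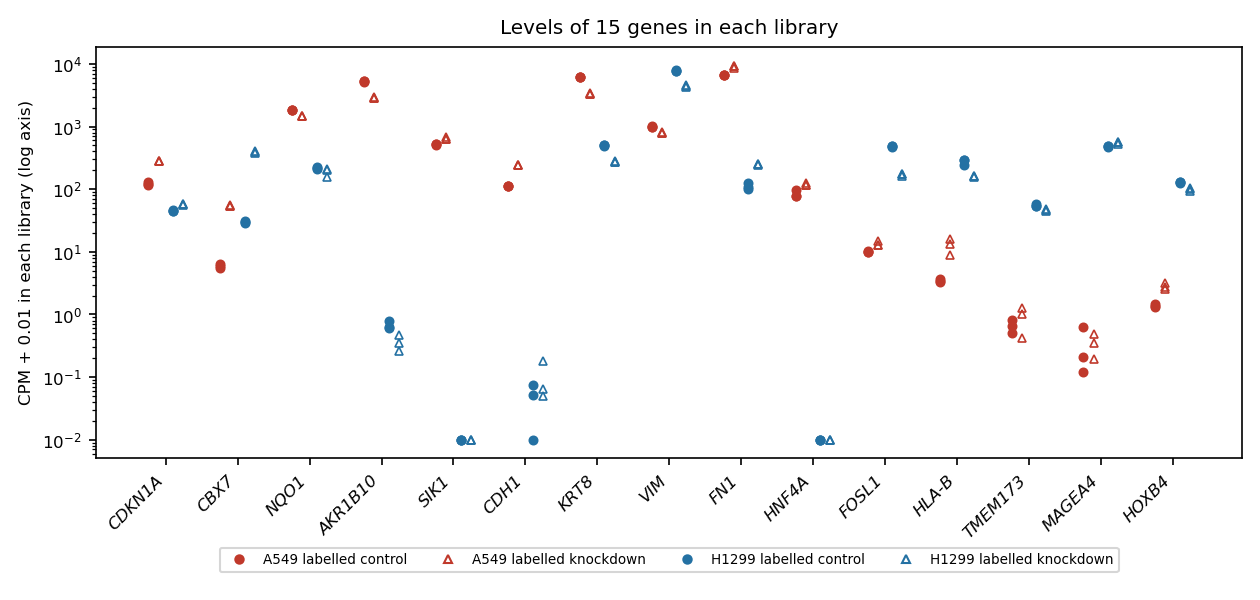
Level of 15 genes in each library (CPM + 0.01, log axis), with A549 in red to the left of H1299 in blue, filled circles for libraries labelled control and open triangles for libraries labelled knockdown, 3 of each. The lines stay apart for AKR1B10 and MAGEA4 under both labels, and CBX7 is higher under the knockdown label in both lines.

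KEAP1, STK11 and NRAS, known to be mutated in 1 of the lines, differed by less than 3-fold in RNA level. KEAP1 was at 67.0, 64.7 and 67.6 CPM in A549 and at 134, 129 and 129 CPM in H1299 (log2 fold change -0.98, SE 0.0312), and STK11 was at 38.9, 35.6 and 36.7 CPM in A549 and at 91.4, 95.1 and 98.1 CPM in H1299 (-1.36, SE 0.0451). NFE2L2 was not called, at 199, 211 and 211 CPM in A549 and at 152, 147 and 42.1 CPM in H1299, and without the third H1299 library its log2 fold change was 0.45 (adjusted p = 1.9e-05, edgeR). NRAS averaged 81.1 ± 0.694 CPM in A549 and 103 ± 1.54 CPM in H1299 (-0.34, SE 0.0267). RB1 was higher in A549 by 0.45, but lower in the libraries labelled knockdown, at a log2 fold change of -0.82. Receptors of growth factors were farther apart. EGFR was at 220, 222 and 226 CPM in A549 and at 16.5, 15.9 and 14.5 CPM in H1299 (3.83, SE 0.0529). IGF1R averaged 477 ± 8.26 CPM in A549 and 33.0 ± 1.52 CPM in H1299, MET averaged 433 ± 3.69 CPM in A549 and 75.1 ± 3.83 CPM in H1299, and ERBB2 and ERBB3 were also higher in A549. AXL, a receptor kinase of cells with mesenchymal traits, was at 97.7, 94.7 and 94.7 CPM in A549 and at 1007, 1017 and 1036 CPM in H1299 (-3.41, SE 0.0246). NF1, which switches RAS off, was higher in A549 by 2.72. Of all 17 members of this axis 10 were higher, 5 lower and 2 (NFE2L2 and FGFR1) not called. Shares over all genes were 42.6% higher and 41.5% lower. HRAS was the remaining member lower in A549. The median log2 fold change was 0.54, and under the knockdown label it was 0.16, with 8 higher and 7 lower.

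Genes that the kinase ERK induces and that feed back on it went both ways. Of 16 listed, 9 were lower in A549, all at least 2-fold, 6 were higher, 2 of them at least 2-fold, and EPHA2 was not called. Over all genes 41.5% were lower, 22% at least 2-fold, and 42.6% higher. The median log2 fold change was -1.69. Under the knockdown label 11 were lower and 4 higher. FOSL1, a subunit of AP-1, was at 10.5, 9.90 and 9.91 CPM in A549 and at 476, 495 and 481 CPM in H1299 (-5.58, SE 0.0364, adjusted p = 3.02e-11, edgeR). SPRY4, an inhibitor of RAS signalling, was at 20.3, 18.7 and 19.5 CPM in A549 and at 137, 134 and 139 CPM in H1299 (-2.81, SE 0.0389). DUSP6, the phosphatase that inactivates ERK, was at 21, 21.6 and 22.2 CPM in A549 and at 81.8, 84.5 and 81.0 CPM in H1299 (-1.93, SE 0.0382). EMP1, SPRED3, SPRY2, SPRY1, PHLDA1 and EGR1 completed the lower genes, with log2 fold changes between -3.60 and -1.53. DUSP4, another ERK phosphatase, went the other way, at 124, 123 and 124 CPM in A549 and at 0.117, 0.203 and 0 CPM in H1299. ETV4 was higher in A549 by 2.68, and SPRED1, SPRED2, DUSP5 and ETV5 were higher by 0.50 or less.

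Of 13 listed targets and coactivators of CREB, the cyclic AMP response factor, 10 were higher in A549 and 3 lower. Among all genes 42.6% were higher and 41.5% lower. SIK1, the salt-inducible kinase that CREB induces and that restrains its coactivators, was at 526, 528 and 513 CPM in A549 and had no count in H1299 under either label, at least 22068-fold higher in A549. Its near-identical copy SIK1B makes the placing of its reads uncertain. INSL4, an insulin-like peptide known as a CREB target of tumours without STK11, was at 56.4, 53 and 50.3 CPM in A549 and at 0 in H1299, at least 2248-fold higher in A549. PDE4B, a cyclic AMP phosphodiesterase, was at 95.5, 104 and 100 CPM in A549 and at 2.44, 2.71 and 3.16 CPM in H1299 (log2 fold change 5.17, SE 0.104). PDE4D was uneven, at 536, 661 and 164 CPM in A549, against 12.4, 12.3 and 12.8 CPM in H1299. The orphan receptors NR4A1, NR4A3 and NR4A2 were higher in A549 by 2.78, 2.71 and 2.22. PPARGC1A, FOS and CREM were higher by 1.77, 1.58 and 0.65. The lower genes were PER1, a clock gene, by -1.38, and the coactivators CRTC1 by -1.16 and CRTC2 by -0.94. Counted under the knockdown label, 10 were again higher and 3 lower.

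Most listed cell cycle inhibitors were lower in A549, at chromosome 9p21 and elsewhere. CDKN2A was at 0.106, 0 and 0 CPM in A549 and at 280, 216 and 287 CPM in H1299, and its neighbour CDKN2B, which encodes p15, was at 0 in A549 and at 42, 40.7 and 44.1 CPM in H1299, at least 1487-fold lower in A549. MTAP, the next gene on chromosome 9 and an enzyme of methionine salvage, was at 6.14, 6.40 and 6.85 CPM in A549 and at 58.0, 61.5 and 59.2 CPM in H1299 (log2 fold change -3.20, SE 0.0577). Genes farther out differed less or the other way. IFNE, the gene before MTAP, was at 8.27, 8.37 and 8.76 CPM in A549 and at 1.41, 1.65 and 1.55 CPM in H1299, and KLHL9, farther out, averaged 56.4 ± 1.76 CPM in A549 against 19.8 to 20.1 CPM in H1299. On the other side DMRTA1 was at 4.88, 3.44 and 4.79 CPM in A549 and at 9.98, 9.11 and 8.33 CPM in H1299, TUSC1 averaged 8.54 ± 0.396 CPM in A549 and 0.158 ± 0.125 CPM in H1299, and CAAP1 was higher in A549 by 0.58. Among inhibitors elsewhere in the genome, CDKN2C, which encodes p18, averaged 37.2 ± 1.06 CPM in A549 and 126 ± 2.99 CPM in H1299. CDKN2D, CDKN1C, CDKN3 and CDKN1B were also lower in A549, by log2 fold changes between -1.80 and -0.27. CDKN1A and KLHL9 were the 2 of 11 listed genes that were higher, and 9 were lower. Shares over all genes were 42.6% higher and 41.5% lower. There were 2 higher and 7 lower under the knockdown label.

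**Figure D3:**
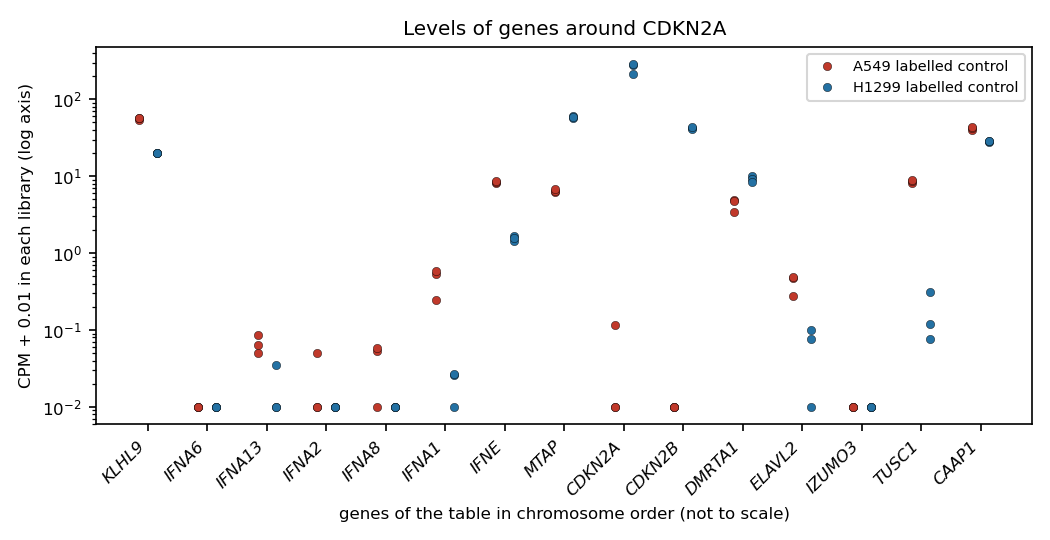
Level of 15 genes around CDKN2A in each library labelled control (CPM + 0.01, log axis), A549 in red to the left of H1299 in blue, in chromosome order by RefSeq and not to scale. MTAP, CDKN2A and CDKN2B are the 3 adjacent genes that are more than 9-fold lower in A549.

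Epithelial genes were higher in A549 in most cases. Of 35 listed, 31 passed the filter on low counts. Of these 31, 22 were higher in A549, 4 lower and 5 not called, with a median log2 fold change of 2.11. Among all genes 42.6% were higher and 41.5% lower. CDH1, which encodes E-cadherin, was at 112, 114 and 113 CPM in A549 and at 0, 0.0648 and 0.0416 CPM in H1299. ELF3, an epithelial transcription factor, was at 269, 261 and 256 CPM in A549 and at 0.139, 0.0405 and 0.0666 CPM in H1299. The keratin KRT7 was at 1598, 1583 and 1584 CPM in A549 and at 5.30, 5.03 and 4.80 CPM in H1299 (8.30, SE 0.0458). H1299 kept other keratins: KRT8 was at 6286, 6251 and 6213 CPM in A549 and at 500, 508 and 498 CPM in H1299 (3.64, SE 0.0188), and KRT18, its partner, was higher in A549 by 2.11. CD24 and the claudin CLDN2 were higher in A549 by 10.77 and 10.06. GRHL1, CLDN4 and OCLN were among the 4 lower members, with log2 fold changes between -1.33 and -0.27. GRHL2, OVOL1 and RAB25, which epithelia commonly express, had too few counts to be tested, with means of 0.037 CPM or less in A549 and 0 in H1299. Among libraries labelled knockdown, 21 were higher and 4 lower.

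Genes of mesenchymal cells and their matrix went both ways. Of 36 tested of 38 listed, 21 were higher in A549 and 14 lower, with a median log2 fold change of 0.93. Over all genes 42.6% were higher, 41.5% lower and the median was 0.03. VIM, the intermediate filament vimentin, was at 1004, 999 and 999 CPM in A549 and at 7999, 7798 and 7602 CPM in H1299 (-2.96, SE 0.0233). FN1, fibronectin, was at 6552, 6624 and 6619 CPM in A549 and at 108, 125 and 102 CPM in H1299 (5.88, SE 0.0991). Collagens differed by chain. COL5A2 averaged 501 ± 5.33 CPM in A549 and 1.09 ± 0.0895 CPM in H1299, and COL5A1, COL4A2 and COL4A1 were higher in A549 by 8.46, 7.32 and 7.01. COL6A2 was at 12.2, 9.28 and 9.84 CPM in A549 and at 314, 319 and 311 CPM in H1299 (-4.91, SE 0.123), and COL6A1 was lower by -3.26. POSTN, periostin, was at 0 in A549 and at 4.59, 3.94 and 4.26 CPM in H1299, at least 150-fold lower in A549. Of the transcription factors that repress E-cadherin, ZEB1 averaged 54.8 ± 2.64 CPM in A549 and 26.8 ± 1.37 CPM in H1299 (1.03), and SNAI1 was higher in A549 by 3.16, whereas ZEB2 and TWIST1 were lower by -1.96 and -3.45. In the libraries labelled knockdown 25 of 38 were higher in A549 and 8 lower, and the median was 2.18. There DCN, decorin, turned round: it was at 0, 0.0904 and 0 CPM in A549 and 0.885, 0.754 and 1.28 CPM in H1299 under the control label, and at 6.30, 32.4 and 39 CPM in A549 and 1.39, 1.10 and 1.68 CPM in H1299 under the knockdown label. DCN is also 1 of the 13 fibroblast and endothelial markers, whose sum under the knockdown label was 90.5 to 340 CPM in A549 libraries, against 8.55 to 9.93 CPM in H1299 libraries. Of the 10 markers tested there, 6 were higher in A549 and 1 lower, beside 42% and 40.2% of all genes. The A549 libraries low and high in DCN were also low and high in COL1A1, at 44.8, 138 and 152 CPM, and COL1A2, at 14.6, 78.9 and 90.0 CPM. The endothelial markers VWF and KDR were at 0 in A549 under both labels. Others of the list were near 0 in the libraries labelled control. PECAM1 averaged 0.0637 FPKM in A549 and 0.0651 FPKM in H1299, CDH5 0.0113 and 0 FPKM, and TIE1 0 and 0.0419 FPKM. The part of these markers in the mesenchymal counts was not tested.

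Integrins, the receptors for that matrix, were higher in A549 in 13 of 19 tested cases and lower in 5. The shares over all genes were 42.6% higher and 41.5% lower. ITGB1, the chain shared by many integrins, was at 2479, 2509 and 2517 CPM in A549 and at 490, 469 and 477 CPM in H1299 (log2 fold change 2.39, SE 0.0223). ITGA4, which pairs with it, was at 3.08, 4.20 and 3.02 CPM in A549 and at 59.2, 56.9 and 53.5 CPM in H1299 (-4.04, SE 0.145). ITGA10, ITGA3, ITGB3 and ITGA5 were lower in A549 too, by log2 fold changes between -2.35 and -0.41. Under the knockdown label 14 were higher and 5 lower.

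Most listed markers of alveolar and airway cells were absent or low in both lines. Of 20, 10 did not pass the filter on low counts, among them SFTPA1, SFTPB, SFTPC, AQP5, HOPX and SCGB1A1, the surfactant, alveolar and club cell genes. NKX2-1, the lung lineage factor, was not called, at 0.115, 0.241 and 0.0580 CPM in A549 and at 0.146, 0.308 and 0.275 CPM in H1299. SFTPD was at 0.423, 0.633 and 0.386 CPM in A549 and at 0 in H1299. The mucins were the exception in A549. MUC5B was at 1210, 1116 and 1159 CPM in A549 and at 0.176, 0.105 and 0.183 CPM in H1299 (log2 fold change 12.86, SE 0.152), and MUC5AC was at 216, 209 and 209 CPM in A549 and at 0.132, 0.0405 and 0 CPM in H1299. LAMP3 was lower in A549 by -3.95, and ABCA3, a lipid transporter of surfactant bodies, averaged 72.5 ± 2.25 CPM in A549 and 77.1 ± 3.08 CPM in H1299 and was not called. FOXJ1, NAPSA and LPCAT1 were higher in A549, by 2.49, 1.19 and 0.93, and AGER was not called. In all 6 of the 10 tested were higher and 1 lower, beside 42.6% and 41.5% of all genes. Under the knockdown label 7 of 11 tested were higher and 2 lower.

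Most transcription factors of gut and liver were higher in A549. All 15 listed were tested, and 14 were higher in A549 by 1.54 or more on the log2 scale. At any size 42.6% of all genes were higher, and 24.5% at least 2-fold. Counted under the knockdown label, 13 were higher and 2 lower. HNF4A, a nuclear receptor of hepatocytes and enterocytes, was at 78.2, 77.7 and 96.1 CPM in A549 and at 0 in H1299, at least 3548-fold higher in A549. FOXA2, a pioneer factor of endoderm, was at 65.3, 62.5 and 61.7 CPM in A549 and at 0.307, 0.284 and 0.308 CPM in H1299 (7.71, SE 0.0652). Other higher factors, in order of the difference, were CDX2, NR5A2, GATA4, FOXA1, PROX1, ONECUT2, FOXA3, ONECUT1, HNF4G and NR1H4, with log2 fold changes between 6.52 and 1.54. GATA6 was the exception, at 10.9, 10.4 and 12.5 CPM in A549 and at 36.6, 35.8 and 36.4 CPM in H1299 (-1.69, SE 0.0732).

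Plasma proteins that the liver secretes were also present in A549. Of 35 listed, 31 passed the filter, some of them through the A549 libraries alone. Over all genes 42.6% were higher and 41.5% lower. Of the 31, 22 were higher in A549, 4 lower and 5 not called. Their median log2 fold change was 3.69, or 3.48 with genes at 0 at their bound. Of 26 tested under the knockdown label, 22 were higher and 3 lower, and the median was 10.34, or 6.64 with genes at 0 at their bound. The fibrinogen chains were high in A549 and nearly absent in H1299: FGA was at 358, 354 and 359 CPM in A549 and at 0.0585, 0.0324 and 0.0333 CPM in H1299, and FGB was at 278, 283 and 287 CPM in A549 and at 0, 0 and 0.108 CPM in H1299. FGL1, a fibrinogen-like protein, was at 86.3, 82.2 and 83.4 CPM in A549 and at 0 in H1299, at least 3547-fold higher in A549. Complement C3 averaged 212 ± 8.45 CPM in A549 and 0.056 ± 0.0169 CPM in H1299. ALB, albumin, was low in both, at 1.17 ± 0.153 CPM in A549 and 0.113 ± 0.082 CPM in H1299. APOE, the lipid carrier, was at 3.10, 3.05 and 1.98 CPM in A549 and at 82.2, 85.4 and 79.4 CPM in H1299 (log2 fold change -4.92, SE 0.2). SERPINA1, SERPING1 and APOC1 were lower in A549 as well, by -2.68, -4.53 and -0.96.

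Some clotting factors were at 0 under the knockdown label. F9, a factor of the intrinsic path, was at 0.644, 0.633 and 0.483 CPM in A549 and at 0.351, 0.486 and 0.50 CPM in H1299 under the control label, and at 0 in all 6 libraries labelled knockdown. F2, prothrombin, was at 6.30, 6.26 and 5.75 CPM in A549 and at 1.68, 2.32 and 2.05 CPM in H1299 under the control label, and at 0 in the H1299 libraries labelled knockdown. F7 and PLG were likewise at 0 in those 3 libraries. F9, F11, SERPIND1, SERPINC1 and F3, tissue factor, were not called between the lines in the libraries labelled control. F7 is not on the list and was chosen after its values were seen.

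The homeobox genes of the HOX clusters, which fix position along the body axis, went both ways. Of 36 tested of 39 listed, 18 were lower in A549, all at least 2-fold, 10 were higher and 8 not called. Among all genes 41.5% were lower, 22% at least 2-fold, and 42.6% higher. HOXB4 was at 1.31, 1.44 and 1.34 CPM in A549 and at 132, 132 and 127 CPM in H1299 (log2 fold change -6.58, SE 0.0516). HOXB2, nearby, was at 3.25, 3.64 and 2.90 CPM in A549 and at 167, 167 and 159 CPM in H1299 (-5.65, SE 0.0902). Among libraries labelled knockdown, 11 were higher and 16 lower. Within the same cluster HOXB5 and HOXB6 were not called, and HOXB13 and HOXB8 were higher in A549 by 0.65 and 0.22. HOXA9 averaged 0.850 ± 0.221 CPM in A549 and 17.2 ± 0.459 CPM in H1299, and HOXC8 averaged 6.08 ± 0.674 CPM in A549 and 62.6 ± 0.632 CPM in H1299. Among the genes higher in A549, HOXD10 averaged 1.43 ± 0.0936 CPM in A549 and was at 0 in H1299, HOXA13 was at 5.86, 4.54 and 6.06 CPM in A549 and at 1.03, 0.478 and 1.20 CPM in H1299, and HOXC13 averaged 13.4 ± 0.518 CPM in A549 and 3.16 ± 0.475 CPM in H1299.

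Genes of the Polycomb complexes, which keep HOX genes silent through histone marks, went both ways. Of 31 genes 10 were higher in A549, 17 lower and 4 not called. At least 2-fold, 8 were higher and 6 lower, beside 24.5% and 22% of all genes. At any size 42.6% of all genes were higher and 41.5% lower. The median log2 fold change of the 31 was -0.19, which was 0.05 with the trend on length removed. CBX7 was the lowest but PHF1 among them in the libraries labelled control. Its paralog CBX2 went the other way, and was at 37.6, 35.3 and 37.4 CPM in A549 and at 5.92, 5.06 and 7.02 CPM in H1299 (2.62, SE 0.118). CBX8 was higher in A549 by 1.08 and CBX6 lower by -0.50. Among the Polyhomeotic subunits, PHC1 averaged 39.1 ± 2.24 CPM in A549 and 135 ± 4.36 CPM in H1299, and PHC2 was lower by -1.76, whereas PHC3 was higher by 1.15. PHF1, an accessory factor of the methylating complex, was at 17.4, 17.3 and 15.9 CPM in A549 and at 103, 102 and 105 CPM in H1299 (-2.62, SE 0.0447). EZH2, its catalytic subunit, averaged 68.5 ± 0.323 CPM in A549 and 96.3 ± 1.49 CPM in H1299 (-0.49). In the libraries labelled knockdown 8 were higher and 19 lower, with a median of -0.41.

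Subunits of SWI/SNF, the remodelling complex that opposes Polycomb, were lower in A549 in 12 of 20 cases, 4 of them at least 2-fold. Over all genes 41.5% were lower, 22% at least 2-fold, and 42.6% higher. The other subunits were 4 higher and 4 not called. The median log2 fold change of the 20 was -0.19, which was -0.50 with the trend on length removed. The ATPase SMARCA4 was at 21, 19.7 and 18.8 CPM in A549 and at 28.4, 29.5 and 29.1 CPM in H1299 (-0.55, SE 0.0555), and the alternative ATPase SMARCA2 was at 84.1, 79.3 and 84.3 CPM in A549 and at 26.2, 23.3 and 26 CPM in H1299 (1.71, SE 0.055). SMARCE1, PBRM1 and BRD7 were the other higher subunits, by 1.43, 0.42 and 0.24. DPF3 and DPF1, subunits of neural forms of the complex, were lower in A549 by -6.07 and -2.19, and SMARCB1 by -1.40. PHF10, BRD9, DPF2, ACTL6A, SMARCD1, ARID1A, SMARCC1 and ARID1B were lower by log2 fold changes between -1.17 and -0.11, and SMARCD3, SMARCC2, ARID2 and SMARCD2 were not called. Under the knockdown label 4 were higher and 15 lower, with a median of -0.71, and PBRM1 was at -0.82.

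Neural and neuroendocrine markers went both ways. Of 23 tested of 28, 8 were higher in A549 and 13 lower, beside 42.6% and 41.5% of all genes. TUBB3, a neuronal tubulin, averaged 123 ± 1.15 CPM in A549 and 465 ± 6.33 CPM in H1299, and SNAP25, of the synaptic release machinery, averaged 86.2 ± 2.26 CPM in A549 and 21.5 ± 0.813 CPM in H1299. DDC, which makes dopamine and serotonin, averaged 6.93 ± 0.124 CPM in A549 and was at 0 in H1299. INSM1, GRP and SOX11 were at 0 in all 6 libraries. Counted under the knockdown label, 9 were higher and 8 lower.

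Imprinted genes, read from the allele of 1 parent, held some on and off contrasts. Of 16 tested, 5 were higher in A549 and 10 lower, beside 42.6% and 41.5% of all genes. Under the knockdown label 5 of 17 were higher and 11 lower. GRB10, an adaptor that dampens insulin signalling, was at 106, 106 and 107 CPM in A549 and at 0.0366, 0 and 0 CPM in H1299. SNRPN, a splicing protein of the Prader-Willi region, was at 80.1, 84.9 and 88.5 CPM in A549 and at 0.0366, 0.0729 and 0 CPM in H1299. PEG3, a zinc finger protein, was at 0 in A549 and at 4.48, 5.15 and 5.65 CPM in H1299, at least 179-fold lower in A549. NDN, of the same region as SNRPN, was lower in A549 by -4.98. MEST, DIRAS3 and NNAT were the other higher genes, by 2.45, 2.22 and 1.62. GNAS, which encodes the stimulatory G protein of cyclic AMP signalling, averaged 609 ± 13.9 CPM in A549 and 1634 ± 24.8 CPM in H1299 (-1.42). IGF2, a growth factor, was at 8.95, 10.4 and 9.17 CPM in A549 and at 49.7, 29.9 and 43.6 CPM in H1299 (-2.11, SE 0.208).

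Cancer-testis antigens, germ line genes that many tumours switch on, were lower in A549 in nearly every member detected. Of 37 listed 18 passed the filter, and many of these passed through the H1299 libraries alone. The count of 17 lower and 1 higher in A549 is therefore a description, beside 41.5% lower and 42.6% higher over all genes. The summed level was 190 to 207 CPM in A549 libraries, against 2159 to 2289 CPM in H1299 libraries. MAGEA4 was at 0.617, 0.111 and 0.203 CPM in A549 and at 477, 490 and 492 CPM in H1299 (log2 fold change -10.57, SE 0.559), and GAGE1 was at 0, 0.0904 and 0 CPM in A549 and at 275, 271 and 298 CPM in H1299. MAGEA3 was at 4.38, 4.96 and 4.07 CPM in A549 and at 124, 128 and 132 CPM in H1299 (-4.84, SE 0.0799). PRAME, which A549 also expressed, was at 141, 141 and 131 CPM in A549 and at 373, 384 and 362 CPM in H1299 (-1.44, SE 0.0376). SAGE1 was the 1 member higher in A549, at 0.231 ± 0.146 CPM against 0 in H1299. CTAG1B, which encodes NY-ESO-1, was at 0 in A549 and at 32.2, 90.9 and 50.6 CPM in H1299, and without the third H1299 library its adjusted p was 0.0723 (edgeR). The GAGE, MAGEA2, XAGE1 and CTAG1 genes have near-identical copies, so their reads may be split among copies. Among libraries labelled knockdown, all 17 tested members were lower.

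The antigen presentation genes were lower in A549 almost throughout. Of 17 genes of MHC class I and its peptide loading, 15 were lower in A549, 10 of them at least 2-fold. HLA-F was not called and NLRC5 was higher. Among all genes 41.5% were lower, 22% at least 2-fold. HLA-B was at 3.27, 3.42 and 3.62 CPM in A549 and at 242, 293 and 295 CPM in H1299 (log2 fold change -6.33, SE 0.11, adjusted p = 3.02e-08, edgeR). B2M, the shared light chain, was at 239, 234 and 228 CPM in A549 and at 597, 596 and 590 CPM in H1299 (-1.35, SE 0.0234). HLA genes are close in sequence and vary between people, so reads of the classical genes may be lost or misplaced. PSMB9, of the immunoproteasome, averaged 1.46 ± 0.236 CPM in A549 and 13.0 ± 0.262 CPM in H1299, and the peptide transporters TAP1 and TAP2 were lower by -1.49 and -1.96. HLA-C, PSMB8, ERAP1, PSMB10, ERAP2, HLA-E, TAPBP, CALR and PDIA3 were lower by log2 fold changes between -1.76 and -0.33. NLRC5, the transactivator of these genes, was at 9.26, 8.73 and 7.87 CPM in A549 and at 5.25, 4.54 and 5.12 CPM in H1299 (0.79, SE 0.106). In the libraries labelled knockdown 13 were lower and 2 higher, with a median of -0.60 against -1.35 here.

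Interferon-induced genes were split. Of 43 listed, 41 were in the table and 38 were tested, and 25 were lower in A549, 9 higher and 4 not called. The shares over all genes were 41.5% lower and 42.6% higher. Of 40 tested under the knockdown label, 22 were lower and 11 higher. TMEM173, which encodes the DNA sensor adaptor STING, was at 0.803, 0.643 and 0.502 CPM in A549 and at 53.6, 54.9 and 57.9 CPM in H1299 (log2 fold change -6.41, SE 0.159). CGAS, the sensor that feeds it, was at 6.11, 6.86 and 4.44 CPM in A549 and at 25.9, 23.1 and 26.9 CPM in H1299 (-2.12, SE 0.165). IFIH1, a sensor of viral RNA, was at 3.08, 2.6 and 2.83 CPM in A549 and at 45.6, 43.1 and 40.9 CPM in H1299 (-3.93, SE 0.0823). ISG15, a ubiquitin-like protein, and IFITM3, which blocks viral entry, were lower by -4.74 and -4.53. OAS1, which activates RNase L, went the other way, at 36.4, 33.2 and 34.1 CPM in A549 and at 0.483, 0.429 and 0.341 CPM in H1299 (6.36, SE 0.122).

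Secreted signals were mostly higher in A549. Of 22 chemokines, cytokines and growth factors tested, of 29 in the table, 15 were higher in A549 and 7 lower. Shares over all genes were 42.6% higher and 41.5% lower. Under the knockdown label 16 of 23 were higher and 5 lower. IL18, a cytokine of epithelia, was at 65.9, 73.6 and 68.8 CPM in A549 and at 0 in H1299, at least 2932-fold higher in A549. CXCL5, a neutrophil attractant, was at 207, 215 and 218 CPM in A549 and at 0.0805, 0.0648 and 0 CPM in H1299, and the EGFR ligands EREG and AREG averaged 96.9 ± 3.13 and 56.2 ± 2.6 CPM in A549, against 0.0108 ± 0.0187 and 0.110 ± 0.190 CPM in H1299. CXCL2 went the other way, at 8.12, 8.4 and 8.76 CPM in A549 and at 86.0, 85.3 and 83.3 CPM in H1299 (log2 fold change -3.33, SE 0.0442). TGFB1 averaged 137 ± 3.47 CPM in A549 and 417 ± 3.31 CPM in H1299 (-1.61), while the TGF-beta receptor TGFBR2 averaged 396 ± 6.81 CPM in A549 and 46.5 ± 3.04 CPM in H1299 (3.09). IL6 and TNF were at or near 0 in all 6 libraries.

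Proteins that bind insulin-like growth factors were higher in A549. In the list that joins them with TGF-beta signalling, 25 of 26 genes were tested. Of these 25, 19 were higher, 3 lower and 3 not called, with a median of 1.39. Among all genes 42.6% were higher and 41.5% lower. All 26 were tested under the knockdown label, where 22 were higher and 4 lower, with a median of 2.37. IGFBP4 was at 2470, 2415 and 2400 CPM in A549 and at 18.2, 19 and 18.0 CPM in H1299 (log2 fold change 7.04, SE 0.0329). IGFBP3 was uneven in A549, at 714, 706 and 228 CPM, against 5.22, 5.95 and 5.26 CPM in H1299. IGFBP1, IGFBP7, IGFBP5 and IGFBP2 were higher by 10.29, 9.48, 6.79 and 3.92. LTBP2, SMAD3 and ID3 were the lower members, by -1.14, -0.44 and -0.35, and ID3 was at 2.37 in the libraries labelled knockdown.

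Glycolysis and the hypoxia response were mixed. Of 31 genes 18 were higher in A549 and 11 lower, with a median log2 fold change of 0.53 under both labels. At least 2-fold, 10 were higher and 2 lower, beside 24.5% and 22% of all genes. At any size 42.6% of all genes were higher and 41.5% lower. The libraries labelled knockdown had 18 higher and 8 lower. CA12, a carbonic anhydrase, was at 933, 922 and 926 CPM in A549 and at 0.132, 0.227 and 0 CPM in H1299. PFKFB3, which makes the activator of phosphofructokinase, averaged 389 ± 13.2 CPM in A549 and 17.3 ± 1.36 CPM in H1299, and LDHA, lactate dehydrogenase, was at 1453, 1447 and 1452 CPM in A549 and at 399, 391 and 383 CPM in H1299 (1.89, SE 0.0215). HK2, a hexokinase, was at 2.00, 2.36 and 2.02 CPM in A549 and at 25.6, 24.9 and 25.6 CPM in H1299 (-3.58, SE 0.0844), while HK1 was higher in A549 by 1.12. GAPDH and ENO1 were lower in A549 by -0.62 and -0.78.

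The line difference of genes of DNA replication and mitosis changed with the label. In the libraries labelled control, 29 of 48 S phase genes were lower in A549 and 15 higher, with a median of -0.36. Of 56 genes of G2 and mitosis 37 were lower and 16 higher, with a median of -0.48. Over all genes 41.5% were lower, 22% at least 2-fold, and 42.6% higher. At least 2-fold lower were 9 of the 48 and 13 of the 56. In the libraries labelled knockdown 41 S phase genes were lower and 5 higher, with a median of -1.28. There 55 mitotic genes were lower and none higher, with a median of -1.92, beside 40.2% lower and 42% higher over all genes. With the trend on length removed, the S phase median was -0.27 under the control label and -1.27 under the knockdown label. The mitotic median was then -0.43 and -1.93. The interaction was called for 43 of the 48 and for all 56 genes, beside 56% of all genes. MKI67, the proliferation marker Ki-67, was at 1123, 1090 and 1092 CPM in A549 and at 457, 426 and 432 CPM in H1299 under the control label (log2 fold change 1.33, SE 0.0305). Under the knockdown label MKI67 was at 257, 253 and 264 CPM in A549 and at 704, 703 and 670 CPM in H1299. TOP2A, the topoisomerase of dividing cells, was at 1270, 1296 and 1331 CPM in A549 and at 411, 390 and 401 CPM in H1299 (1.70, SE 0.0284), and at -0.23 under the knockdown label. NDC80, of the kinetochore, was lower in A549 under both labels, at 25.2, 25.6 and 25.2 CPM against 200, 201 and 191 CPM in H1299 (-2.96, SE 0.032) in the libraries labelled control. CDT1, which loads the replicative helicase, averaged 37.7 ± 1.96 CPM in A549 and 216 ± 3.79 CPM in H1299 (-2.52), whereas PCNA, the sliding clamp, averaged 378 ± 9.54 CPM in A549 and 212 ± 0.617 CPM in H1299 (0.84).

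Ribosomal protein genes were lower in A549 in 75 of 80 tested cases and higher in 2, RPL13A and RPL19. Among all genes 41.5% were lower and 42.6% higher. The ribosomal median log2 fold change was -1.03. The summed level of the list was 45924 to 46866 CPM in A549 libraries, against 86717 to 91622 CPM in H1299 libraries. RPL7 was at 880, 871 and 863 CPM in A549 and at 3526, 3591 and 3520 CPM in H1299 (-2.02, SE 0.0186), and RPS28 was at 53, 51.9 and 48.4 CPM in A549 and at 266, 292 and 292 CPM in H1299 (-2.47, SE 0.0511). The direction did not hold under the other label: there 41 were higher in A549 and 30 lower, with a median of 0.15. These RNAs are short, and the H1299 libraries labelled control held shorter transcripts than the other 3 sets. With the trend on length removed, the median was -0.58. Respiratory chain genes, also short, were lower in A549 in 38 of 51 tested cases and higher in 8, with a median of -0.56, which was -0.07 with the trend on length removed and -0.11 in the libraries labelled knockdown. The part of RNA length in these values was not tested beyond that. UQCRC2, a core subunit of complex III, was an exception, averaging 202 ± 3.68 CPM in A549 and 88.3 ± 1.79 CPM in H1299 (1.19). Ribosomal protein genes have many processed copies in the genome, so their counts are uncertain.

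**Figure D4:**
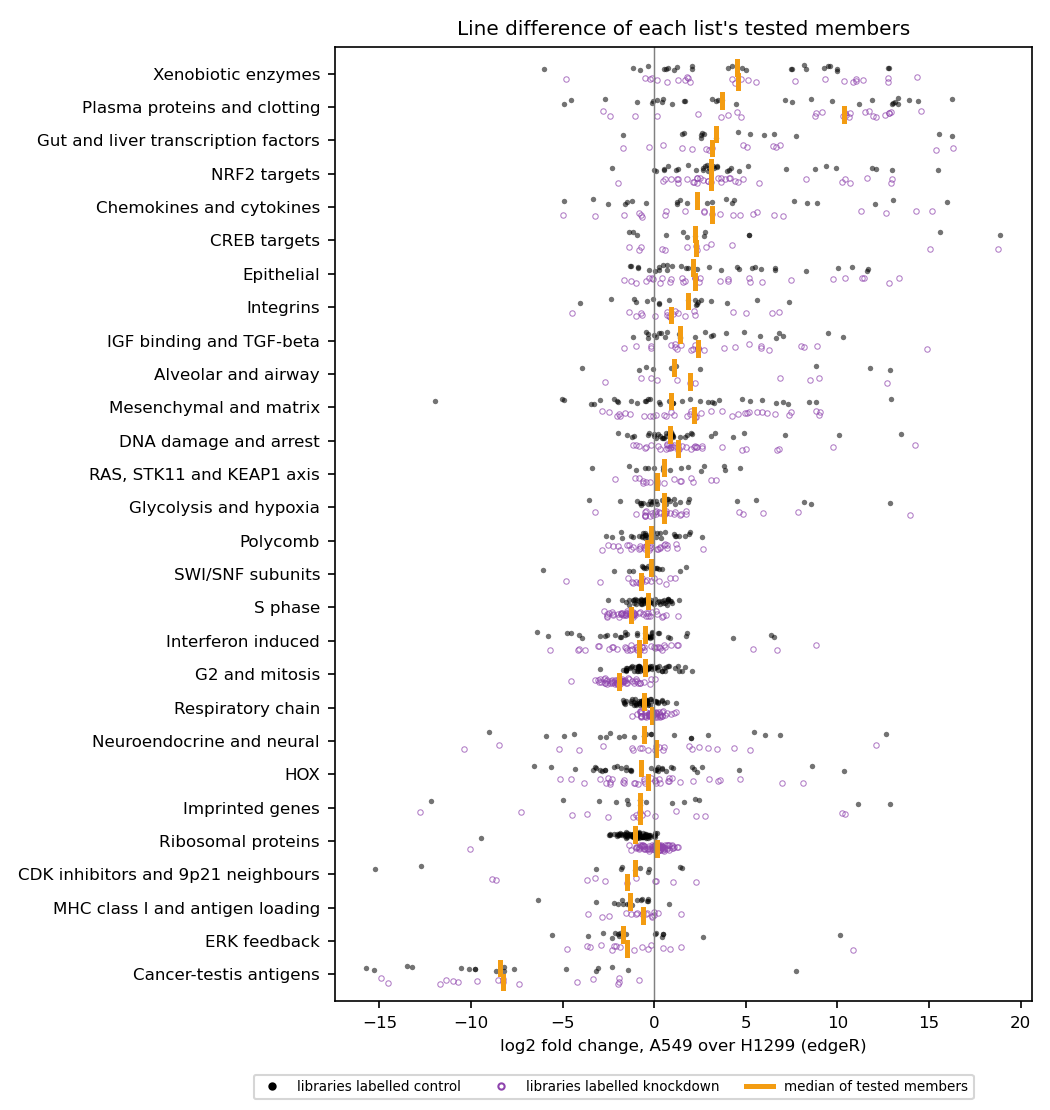
Log2 fold change of A549 over H1299 (horizontal) of every tested member of 28 gene lists (rows), in the libraries labelled control (black) and those labelled knockdown (open purple), with the median of each as an orange bar. The medians of NRF2 targets stay at 3.09 and 3.07, those of Cancer-testis antigens at -8.42 and -8.27, and those of Ribosomal proteins move between -1.03 and 0.15.

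The median difference varied between chromosomes. Of 19475 symbols 18589 were placed on a chromosome by RefSeq. Chromosomes 19 and 6 had the lowest medians, at log2 fold changes of -0.85 and -0.81, and chromosomes 10 and 15 the highest, at 0.62 and 0.58, where all genes had 0.03. On chromosome 6, 467 of 726 tested genes were lower in A549 and 153 higher, and leaving out genes with HLA and histone names left the median at -0.81. Under the knockdown label the median of chromosome 6 was -0.79 and that of chromosome 19 was -0.49. Chromosome 19 carries clusters of zinc finger genes. Of 253 tested genes with zinc finger names there, 160 were lower in A549 (63.2%), the same share as among the 869 other genes of the chromosome (63.2%). At least 2-fold lower were 129 of the 253 (51.0%) and 363 of the 869 (41.8%), beside 22% of all genes. The medians of the zinc finger genes were -1.18 under the control label and -1.12 under the knockdown label, and those of the other genes of the chromosome were -0.82 and -0.38. Zinc finger genes on other chromosomes had a median of 0.23. Copy number was not measured here, and zinc finger genes resemble each other in sequence.

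**Figure D5:**
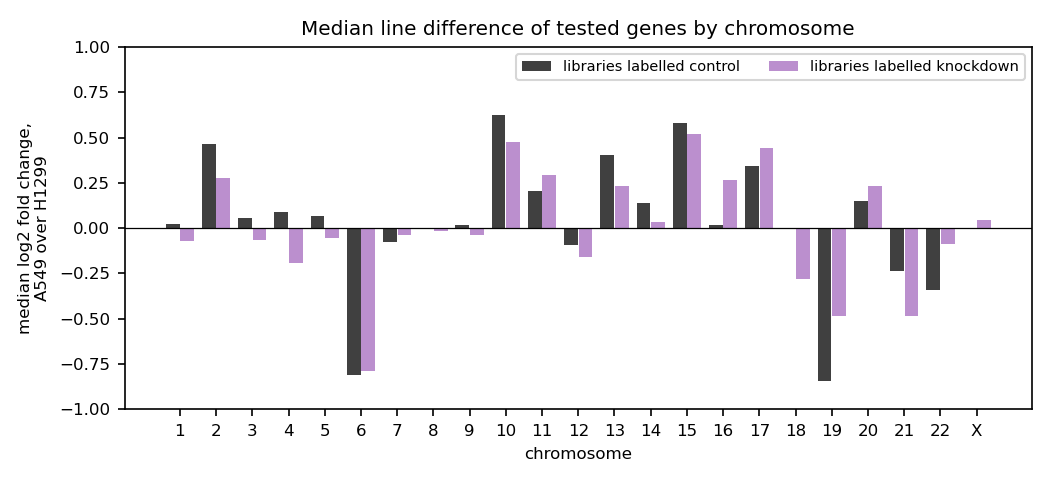
Median log2 fold change of A549 over H1299 (vertical) of the tested genes of each chromosome (horizontal), in the libraries labelled control (dark bars) and those labelled knockdown (purple bars). Chromosomes 19 and 6 lie lowest, at -0.85 and -0.81 in the libraries labelled control, and chromosome 10 highest at 0.62.

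Genes that were silent in 1 line made up a small class. Leaving out genes of the Y chromosome, 85 genes with at least 5 CPM in each A549 library had no count in the 3 H1299 libraries labelled control, and 57 genes with at least 5 CPM in each H1299 library had none in A549. Of the 85 genes 53, and of the 57 genes 23, were at 0 in the same line under the knockdown label too. The 57 genes at 0 in A549 included 15 with zinc finger names on chromosome 19 and 11 on the X chromosome, and the 85 genes at 0 in H1299 included 0 and 2 of these kinds. RHOXF2B, a homeobox gene of the testis, was the strongest of those at 0 in A549, at 296, 307 and 307 CPM in H1299, at least 10665-fold lower in A549. NXF2, a germ cell RNA export factor, was at 129, 123 and 114 CPM in H1299, at least 4284-fold lower in A549, and TDRD9, a helicase of the piRNA path, at 77.6, 74.2 and 83.8 CPM, at least 2761-fold lower. RHOXF2B and NXF2 have near-identical copies.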

How the data were processed

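The deposited table holds estimated counts and FPKM per gene. Per the submitters' processing notes, the authors aligned reads to hg19 with HISAT2 and made the values with StringTie, and per the labels' protocols the libraries were stranded total RNA sequenced in pairs. The estimated counts deposited by the authors were rounded to whole numbers. FPKM as deposited by the authors was used for levels across genes and in alternative fits. Genes were tested with edgeR 4.0.16 (TMM, filterByExpr, robust quasi-likelihood) in R 4.3.3 on the 6 libraries labelled control, and the same fit was made on the 6 labelled knockdown. An interaction of line and label was fitted on all 12. Alternatives used DESeq2 1.42.0, limma 3.58.1 on log2(FPKM + 1) and log2(FPKM + 0.1), other filters, the replicate number as a block and each library left out. Transcript length is the one implied by counts and FPKM. A gene at 0 in a line was given a bound from a floor of 3 counts per library, which covers counting error only and would be 4 times higher if 4 counts stand for 1 fragment.

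The genes compared and the 28 gene lists were chosen with earlier results of these data known. Named are CBX7, the 12 genes with the highest and the 12 with the lowest fold change at 20 CPM or more, all members of lists of up to 20 genes, the 6 highest and 6 lowest of longer lists, genes at 0 in a line, and the 5 most abundant per line, with the less informative of these left unnamed and some not reported here. Further names were chosen after their values were seen. Genes of the Y chromosome were left out of the genes named by fold change and of those at 0 in a line. They were kept in the tests and in the shares over all genes. RefSeq tables (GRCh38.p14) gave chromosomes, gene order and promoter sequences, and no coordinate of the hg19 files was used. On data simulated for this comparison with each gene's own spread (15156 genes), the fit recovered 75.7% of genes changed 2-fold and 52% of those changed 1.5-fold, and 10.7% of its calls were false. With a smooth spread 3.37% were false. Only a small share of the genes was changed in each simulated set, whereas 84.1% of genes were called here. Recovery and the share of false calls depend on that share, so these figures do not carry over to the real comparison.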

Additional observations from a re-analysis of the deposited data

Results flagged for a closer look

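The difference between A549 and H1299 itself differed between the libraries labelled control and those labelled knockdown at 8870 genes by edgeR's interaction test (adjusted p under 0.05). Among 310 named genes that were tested, 10 were called in opposite directions under the labels and had a called interaction. Over all genes, 1281 of the 12877 called in the libraries labelled control were called the opposite way under the knockdown label. A positive value below means that the log2 fold change of A549 over H1299 was higher under the control label than under the knockdown label. The value was 2.79 for MKI67, 1.96 for TOP2A, 1.94 for HNF4G, 1.31 for RB1, 1.27 for PBRM1, 0.86 for SPRED1 and 0.80 for ETV5. It was -9.21 for DCN, -2.69 for ID3 and -0.50 for PDIA3. The H1299 libraries labelled control held shorter transcripts than the other sets, and the part of RNA length in these values was not tested. Since CBX7 RNA goes against the labels, which of the label sets is closer to unmanipulated cells was not tested. Groups held 3 libraries, so single libraries were not tested as outliers.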

How the results depend on the processing

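In the libraries labelled control, edgeR called 6518 genes higher and 6359 lower in A549, and at least 2-fold these were 3745 and 3370. DESeq2 called 6815 higher and 6469 lower. Library totals without TMM gave 6194 higher and 6706 lower. Leaving out 1 library at a time gave 6369 to 6484 higher and 6265 to 6301 lower, and in the libraries labelled knockdown 6217 to 6367 higher and 5973 to 6186 lower. With the replicate number as a block, 6263 were higher and 6124 lower. Same-numbered libraries of the lines did not deviate together (correlations of -0.006, -0.036 and -0.034), so the numbers do not pair them. Among 28 lists, the count of members called changed by more than 1.5 times in few cases. Alveolar and airway genes higher in A549 fell to 3 with a filter of 1 CPM and with both filtered limma fits. Neural genes lower in A549 fell to 7 in both filtered limma fits and were 8 under the knockdown label. Under that label 30 ribosomal and 25 respiratory chain genes were lower, with medians of 0.15 and -0.11, and with the length trend removed (chosen after seeing the data) the medians were -0.58 and -0.071. The medians of Polycomb and SWI/SNF genes, -0.19 each, were 0.045 and -0.50 with the length trend removed and -0.41 and -0.71 under the knockdown label, both added after seeing the data. Of 5189 pairings of a named gene with an alternative, 5072 kept direction and side of the threshold, 67 lost the call, 40 gained it and 10 turned round. All 10 turned round under the knockdown label: MKI67 -1.42, RB1 -0.82, PBRM1 -0.82, ETV5 -0.65, SPRED1 -0.32, HNF4G -0.28, TOP2A -0.23, DCN 4.22, ID3 2.37 and PDIA3 0.21. The cause was not tested. With 1 library left out, the calls of PROX1, NAPSA, HOXB8, RPL19, ETV5, CTAG1B and ST6GAL2 were lost in at least 1 fit each, and RRM2B, NFE2L2, SESN1, SMARCD2, HOXB5, AGER and ABCA3 gained a call in at least 1.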

Other observations

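Among genes outside the lists, several were at 0 in the 3 H1299 libraries labelled control and high in A549. MLPH, a linker of pigment granules to myosin, was at 225, 215 and 219 CPM in A549, at least 9276-fold higher than in H1299 against a floor of 3 counts per library. HPGD, which inactivates prostaglandins, was at 239, 123 and 242 CPM in A549, and GABRA5, a GABA receptor subunit, was at 165, 165 and 163 CPM in A549. NPY4R, SMOC1, GLP2R and HAVCR1 averaged 140, 89.6, 87.1 and 76.4 CPM in A549 and had no count in H1299. ST6GAL2, a sialyltransferase, was uneven, at 54.0, 182 and 182 CPM in A549. At 0 in A549 were IL13RA2, a decoy receptor for interleukin 13, at 62.3, 63.7 and 60.01 CPM in H1299, MUC15, at 43.1, 43.1 and 40.5 CPM in H1299, and GAGE8, at 90.0, 92.0 and 99.6 CPM in H1299.

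Other genes were detected in both lines and far apart. NRCAM, a neural adhesion protein, averaged 507 ± 0.780 CPM in A549 and 1.22 ± 0.168 CPM in H1299. HMGA2, a chromatin protein of embryonic cells, was at 6.99, 6.54 and 6.88 CPM in A549 and at 780, 771 and 775 CPM in H1299 (log2 fold change -6.83, SE 0.0352, edgeR). FLNC, a filamin, averaged 2.32 ± 0.174 CPM in A549 and 307 ± 5.32 CPM in H1299, and MMP14, a membrane-bound matrix protease, averaged 2.71 ± 0.607 CPM in A549 and 127 ± 2.01 CPM in H1299. These 4 were picked with their values in view.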
